A study of Mus musculus with 2 samples.

Results

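AMPA receptors are the glutamate-gated channels that carry most fast excitatory transmission in the brain. Their 4 subunit genes, Gria1, Gria2, Gria3 and Gria4, were taken by name, with every transcript annotated to them. They are 4 of 55536 annotated genes, and they have 26 of 141862 annotated transcripts. Total RNA was sequenced from the cerebral cortex, left side, of B6CASTF1/J mice, males of an F1 cross aged 25 days, with no treatment named. There were 2 libraries in 1 group, biological replicates 1 and 2, each from 300 ng of RNA. Both samples carry the same donor entry in the labels. That they are separate animals rests on the words biological replicate and on their biobank numbers, and so does every SD given here. With 1 group there was no contrast between conditions and no test, so the comparisons below are between genes, transcripts and libraries.

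Each receptor is built from a tetramer of subunits, and the mixture sets what the channel does. GluA2, the product of Gria2, makes the channel nearly impermeable to calcium once its messenger has been edited in the pore. Each gene also carries a pair of mutually exclusive exons, flip and flop, which encode a stretch of the extracellular ligand-binding domain. Flop forms of most subunits desensitize faster, and in rodent brain flip forms are the main ones before birth while flop forms gain ground as the animal matures.

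The flip and flop exons were found in the annotated transcripts by the peptides they encode. All 4 genes had both, each of 115 bases, and in all 4 the flop exon came first along the gene. The pairs of Gria2 and Gria4 are printed because Gria2, the most abundant gene, was mostly flip and Gria4 mostly flop in the values below. Each sequence is the coding strand, 5′ to 3′, in GRCm38 (mm10), and capitals mark the bases at which flip and flop of the same gene differ. The Gria2 exons lie at chr3:80690404-80690518 (flip) and chr3:80691320-80691434 (flop), minus strand. The Gria4 exons lie at chr9:4427030-4427144 (flip) and chr9:4432773-4432887 (flop), minus strand.
Gria2 flip: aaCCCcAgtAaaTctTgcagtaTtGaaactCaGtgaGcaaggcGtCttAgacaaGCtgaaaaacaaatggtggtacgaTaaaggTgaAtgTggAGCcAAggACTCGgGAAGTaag
Gria2 flop: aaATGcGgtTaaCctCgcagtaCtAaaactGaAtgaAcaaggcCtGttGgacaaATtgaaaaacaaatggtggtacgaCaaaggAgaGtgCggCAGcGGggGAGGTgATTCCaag
Gria4 flip: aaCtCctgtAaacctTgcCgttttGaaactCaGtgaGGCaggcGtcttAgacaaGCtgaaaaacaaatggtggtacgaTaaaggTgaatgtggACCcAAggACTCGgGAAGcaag
Gria4 flop: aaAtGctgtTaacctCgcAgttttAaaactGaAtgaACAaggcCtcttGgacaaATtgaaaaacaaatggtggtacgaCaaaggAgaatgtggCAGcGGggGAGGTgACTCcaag
The capitals are densest near the end of the exon, where the flop form has a run of glycine codons. Flip and flop differed at 36 of 115 bases in Gria2 and at 31 in Gria4. They differed at 36 bases in Gria1 and at 32 in Gria3. Between genes the same exon was far closer. The flop exons of Gria3 and Gria4 were 94.8% identical, the closest pair, and the lowest identity between genes was 87.8%, against 68.7% to 73.0% between flip and flop within a gene. The intron between the exons was 724 bases in Gria1, 801 in Gria2, 5628 in Gria4 and 14576 in Gria3.

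Levels are in TPM, which are counts divided by transcript length and then scaled to a fixed total per library, so genes can be set side by side. Gria2 was the most abundant subunit gene. It lies at chr3:80681450-80802835 on the minus strand and had 230.01 TPM (replicate 1) and 221.96 TPM (replicate 2). The mean was 225.99 ± 5.69 TPM (SD, n = 2), on 21233.98 and 23181.41 expected counts, which placed it at rank 326 of all annotated genes. The authors' credibility bounds for Gria2 were 218.6 to 227.0 TPM in replicate 1 and 211.5 to 219.2 TPM in replicate 2. In each library the Gria2 value thus lay above its own bounds. Gria2 was above the other 3 genes in both libraries.

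Gria3, the X-linked subunit gene at chrX:41400854-41678601 on the plus strand, had 94.32 and 97.47 TPM. Gria1, whose product GluA1 is the subunit best known for activity-driven insertion at synapses, lies at chr11:57011387-57330244 on the plus strand and had 93.98 and 94.87 TPM. Their means, 95.895 ± 2.23 and 94.425 ± 0.629 TPM (SD, n = 2), did not differ beyond the spread, since the values of the 2 genes overlapped. Within each library Gria3 was the higher of the 2. Gria4, at chr9:4417896-4796234 on the minus strand, codes for the subunit prominent in some interneurons and in the thalamus. It was the lowest, at 45.95 and 44.34 TPM (mean 45.145 ± 1.14 TPM, SD, n = 2). Its rank of 2610 was still within the top 17.7% of the 14744 genes detected, meaning at 1 TPM or more in both libraries. In bulk tissue fewer cells of a type and less RNA per cell cannot be told apart.

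Summed over the 4 genes, the libraries had 464.26 and 458.64 TPM. Gria2 made up 49.5% and 48.4% of that sum (mean 48.97 ± 0.812%, SD, n = 2). Gria3 made up 20.78 ± 0.662%, Gria1 20.46 ± 0.313% and Gria4 9.78 ± 0.162% (SD, n = 2). For each TPM of Gria1 there were 2.45 and 2.34 TPM of Gria2. The ratio of Gria2 to Gria3 was 2.44 and 2.28, and that of Gria2 to Gria4 was 5.01 in both libraries.

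None of the 4 genes was over 1.5-fold apart between the libraries (0 of 4), where 3.75% of 18136 genes were (all those whose expected counts averaged 10 or more). On TPM + 0.5, the log2 difference of replicate 2 over replicate 1 was 0.01 for Gria1, -0.05 for Gria2, 0.05 for Gria3 and -0.05 for Gria4. The median over the 18136 genes was -0.03. From counts scaled by library size, the Gria1 difference was 0.05, with an exact binomial 95% counting interval of 0.01 to 0.09. The counting intervals of Gria2, Gria3 and Gria4 included 0. These intervals cover counting error only, not the spread between animals. The libraries totalled 30503944 and 33263801 expected counts. Neuronal markers were present in both, with Slc17a7, the vesicular glutamate transporter of cortical excitatory neurons, at 675.22 and 663.88 TPM and Gad1, which makes GABA, at 136.74 and 136.70 TPM. The 3 oligodendrocyte markers were higher in replicate 2, at a summed 654.58 against 874.61 TPM, and of the 2 choroid plexus markers Ttr was at 19.47 and 191.94 TPM and Folr1 at 0.59 and 2.26 TPM. Their part in the values of the subunit genes was not tested.

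Set among all 18 ionotropic glutamate receptor subunit genes, Gria2 ranked first by mean TPM. It was followed by the NMDA receptor genes Grin1, the obligatory subunit, at 198.5 ± 12.1 TPM and Grin2b at 151.0 ± 3.8 TPM (SD, n = 2). Gria3 was at position 5, Gria1 at position 7 and Gria4 at position 8. The kainate receptor gene Grik5 lay between Gria3 and Gria1 at 97.65 and 93.80 TPM, and these 3 neighbours overlapped. Gria4 was above the next gene, Grik2, at 32.39 and 30.80 TPM, in both libraries. The AMPA receptor genes held 39.7% and 40.5% of the summed TPM of the 18 genes. Of the 14 other subunit genes, 13 were detected, and the lowest was Grin3b at 0.085 TPM, on 7 and 4 counts. None of the 13 detected genes was over 1.5-fold apart between the libraries in the gene table, where 3.75% of all genes tested were. Grin3b, at 0.11 and 0.06 TPM, had too few counts for that comparison.

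**Figure D1:**
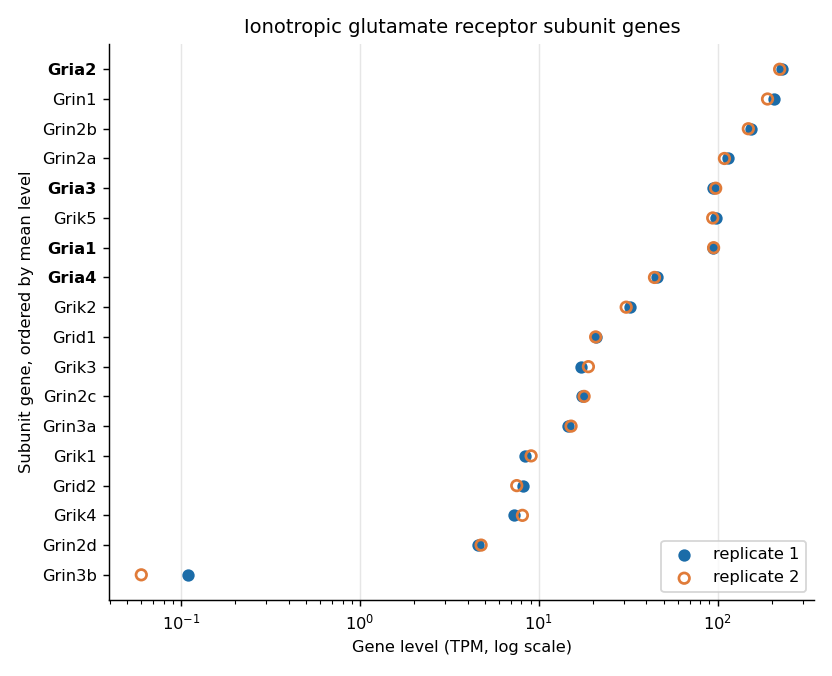
TPM (log axis) of the 18 ionotropic glutamate receptor subunit genes in replicate 1 (filled) and replicate 2 (open), ordered by mean, with the AMPA receptor genes in bold. Gria2 is at the top, at 230.01 and 221.96 TPM, and Gria3, Grik5 and Gria1 overlap.

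The second transcript file, a separate set of estimates from the same reads, gave higher TPM for all 4 genes. Gria2 stood there at 331.16 and 327.83 TPM, Gria3 at 144.86 and 145.34 TPM, Gria1 at 128.63 and 142.16 TPM and Gria4 at 67.9 and 66.1 TPM. The ratio of the second to the first estimate was 1.43 to 1.51 for these genes, beside a median of 1.58 over all genes detected. The composition was near that of the gene table, with Gria2 at 49.2% and 48.1% and Gria4 at 10.1% and 9.69% of the sum.

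The 26 transcripts fell into 11 that code for a full-length subunit, 9 with a retained intron, 3 with a partial or shortened coding sequence, 2 annotated as targets of nonsense-mediated decay and 1 processed transcript without a reading frame. Full-length here means annotated as protein-coding, with a flip or a flop exon but not both, and with no coding end marked as incomplete. The annotated proteins of all 11 hold the pore. The 2 decay targets hold both exons and do not count as full-length. In the first transcript file, full-length transcripts made up 96.9% of Gria1 TPM in replicate 1 and 97.0% in replicate 2. They made up 71.6% and 74.3% of Gria2, and 66.1% and 70.8% of Gria3. In Gria4 they made up 47.1% and 46.4%, so Gria4 was the gene in which most of the TPM lay outside full-length transcripts. Total RNA can also hold RNA that is not yet spliced. Its part in the shares of transcripts that hold intron bases of the full-length forms was not tested.

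Counting full-length transcripts alone, Gria1 stood above Gria3 in every library and file. In the first file, Gria1 had 91.0 and 92.0 TPM and Gria3 had 62.4 and 69.1 TPM. In the second file, Gria1 had 128.6 and 131.7 TPM and Gria3 had 121.8 and 123.5 TPM. The order of these 2 genes thus depended on which transcripts were counted. Gria2 kept 48.5% and 47.6% of the full-length sum in the first file, with Gria1 at 26.8% and 26.6%, Gria3 at 18.4% and 19.9% and Gria4 at 6.38% and 5.94%.

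**Figure D2:**
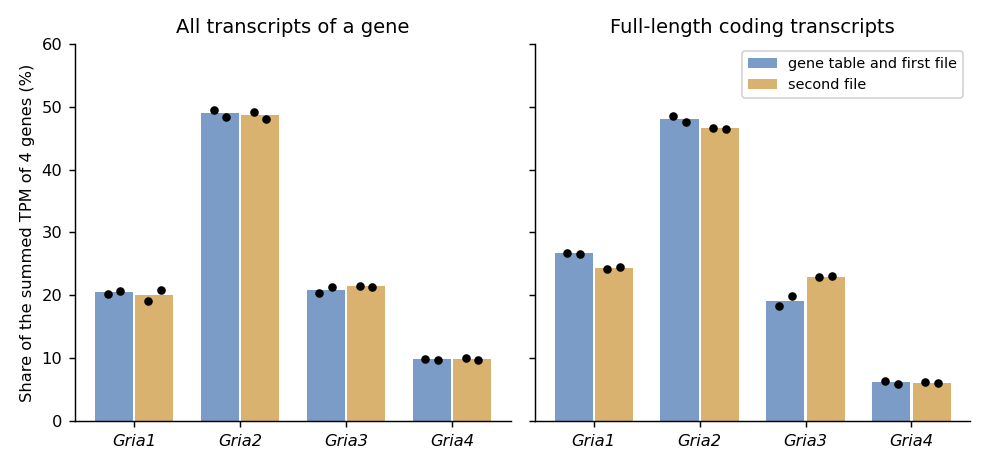
Share of each gene in the summed TPM of the 4 genes (%), over all transcripts (left) and over full-length coding transcripts only (right). Bars are means of 2 libraries and points are the libraries; Gria4 goes from 9.78% of all TPM to 6.16% of full-length TPM, and Gria1 from 20.5% to 26.7%, in the gene table and the first file.

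Transcripts are named here where their mean share over both libraries reached 5% of their gene's TPM in either file, as 15 of 26 did. Gria1-204, Gria1-205, Gria2-203 and Gria3-209 did not, and are named besides because of their exons or, for Gria1-205, a value in 1 library, a choice made after the values were seen. The 11 below 5% had mean shares of at most 3.09% in the first file and 3.69% in the second.

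In Gria1, the flip transcript Gria1-201 held 67.3% and 67.9% of the gene's TPM in the first file, and the flop transcript Gria1-202 held 29.6% and 29.1%. Both code for 907 residues and differ in their 3′ untranslated regions by 1 base in length (2598 and 2597 bases). They also start apart in the annotation, at chr11:57011810 for Gria1-201 and at chr11:57011956 for Gria1-202. In the second file the shares were 64.2% and 61.6% for Gria1-201 and 35.8% and 31.0% for Gria1-202. The flip form was therefore the main one in both files and both libraries. A further flip transcript with a shorter protein of 838 residues, Gria1-204, was listed at 0 TPM in both libraries in the first file. In replicate 2 the second file also gave 10.5 TPM, 7.37% of the gene, to the processed transcript Gria1-205, which was listed at 0 in replicate 1 and in the first file.

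In Gria2, the flip transcript Gria2-202 held 57.6% and 60.3%, and the flop transcript Gria2-201 held 13.96% and 13.95%. The second file gave 61.3% and 63.0% for Gria2-202 and 13.4% and 13.1% for Gria2-201. These 2 transcripts differ in more than the exon. Gria2-201 has a 3′ untranslated region of 7268 bases and Gria2-202 one of 923 bases, and Gria2-202 has no base that is absent from every other transcript of the gene. Whether reads were assigned by the exon or by the length of the untranslated region cannot be told apart in these values. By counts, which are not divided by length, Gria2-201 held 31.3% and 30.9% of the gene in the first file, above its share of TPM.

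The 5 retained-intron transcripts of Gria2 held 28.0% and 25.2% of the gene's TPM in the first file and 23.8% and 21.9% in the second. The largest of them, Gria2-206, was at 28.39 and 26.15 TPM, or 12.3% and 11.8% of the gene. Gria2-204 was at 5.74% and 5.85% in the first file. Gria2-208, which has no base of its own in the annotation, was at 7.47% and 5.38% in the first file and at 3.50% and 2.95% in the second. The decay target Gria2-203, which holds both exons, was at 0.470% and 0.550% in the first file.

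In Gria3, the flip transcript Gria3-201 held 65.4% and 65.2% in the first file and 73.9% and 70.9% in the second. The flop transcript Gria3-202 was at 0.774% and 5.65% in the first file, and at 8.56% and 9.62% in the second. The decay target Gria3-206, which joins both exons, held 17.5% and 11.0% in the first file and 0.0367% and 0.000286% in the second. It was the only 1 of the 26 transcripts whose mean share differed by 10 points or more between the files, where 21.8% of 77726 transcripts did. Neither Gria3-202 nor Gria3-206 has a base of its own in the annotation. The authors' credibility bounds, whose level is not given in the sources used here, ran from 0.000115 to 2.68 TPM for Gria3-202 and from 12.2 to 19.1 TPM for Gria3-206 in replicate 1. The bounds were 2.28 to 7.98 TPM and 5.56 to 14.8 TPM in replicate 2.

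The flop exon of Gria3 is also held whole within a longer exon of the retained-intron transcript Gria3-208, which stood at 11.2% and 10.4%. Added over every transcript that holds it in any form, the Gria3 flop exon was in 29.5% and 27.0% of the gene's TPM in the first file and 22.1% and 25.1% in the second. The 4 values of that sum spanned fewer points than the 4 values of Gria3-202 or of Gria3-206 alone. Gria3-202 and a further flop transcript, Gria3-209, end early in the annotation, with 248 and 0 bases of 3′ untranslated region, against 2264 in the flip form. As in Gria2, exon choice and transcript end cannot be told apart here.

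In Gria4, the most abundant transcript was neither flip nor flop. Gria4-203 held 52.9% and 53.6% of the gene's TPM in the first file, at 24.30 and 23.76 TPM, and 51.9% and 51.2% in the second. Its share of counts was lower, 32.2% and 32.9%, because it is 2338 bases long against 5207 to 5441 for the full-length forms. It has 11 exons and codes for 433 residues without the pore, where the full-length forms code for 902. Of its bases, 590 are in no other transcript of the gene, and these lie within an intron of the full-length forms. They include the last coding exon, whose 30 coding bases lie at chr9:4478823-4478852 (mm10, minus strand). These are printed, all in capitals, because they are in no exon of another annotated transcript of the gene.
Gria4-203 last coding bases: CCTCTGATGAAGAATCCTATTTTAAGAAAT
Counts were assigned to this transcript in both libraries and both files. The authors' credibility bounds were 21.8 to 25.4 TPM in replicate 1 and 21.4 to 24.9 TPM in replicate 2. RNA of the gene that is not yet spliced would hold the same 590 bases, and its part in these values was not tested. A total RNA count does not show whether a protein is made from Gria4-203.

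Among the full-length Gria4 transcripts, the flop form Gria4-201 held 28.6% and 23.7% in the first file, and the flip form Gria4-202 held 14.1% and 16.3%. A further flop form, Gria4-204, held 4.48% and 6.47%. In the second file Gria4-201 was at 17.0% and 27.1% and Gria4-204 at 17.6% and 5.87%. These were the only 2 of the 26 transcripts that lay 10 points or more apart between the libraries in the second file, where 11.2% of transcripts did, and none of the 26 did so in the first file, where 9.93% did. The sum of the 2 flop forms moved far less, at 34.5% and 33.0% in the second file and 33.1% and 30.2% in the first.

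**Figure D3:**
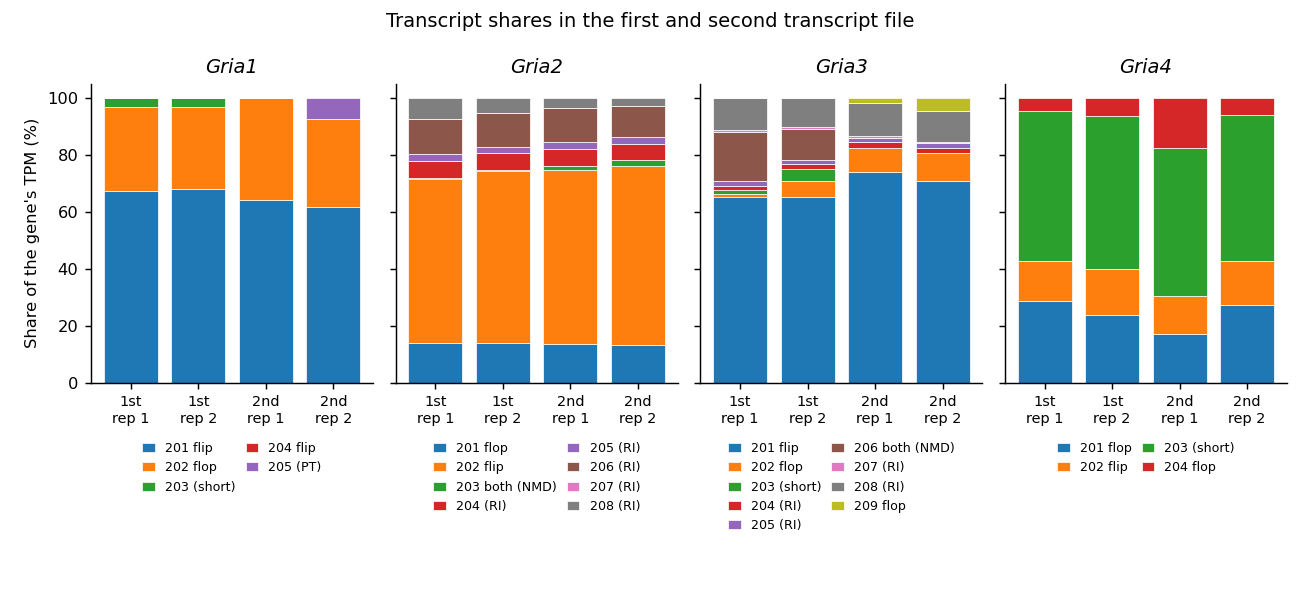
Share of each gene's TPM (%) by transcript, in the first (1st) and second (2nd) transcript file for each replicate. RI marks retained introns, NMD nonsense-mediated decay targets, PT a processed transcript and short a partial or shortened coding sequence; Gria4-203 holds more than any other Gria4 transcript in all 4 bars, and Gria3-206 is seen in the first file only.

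The flip share was then taken as the TPM of flip transcripts over that of flip plus flop transcripts, leaving out transcripts with both exons or neither. In Gria2 it was 80.5% and 81.2% (mean 80.85 ± 0.516%, SD, n = 2), and in Gria1 69.5% and 70.0% (mean 69.75 ± 0.404%). In Gria3 it was 98.8% and 92.0% (mean 95.42 ± 4.81%). In Gria4 it was 29.9% and 35.0% (mean 32.45 ± 3.65%), which made Gria4 the only 1 of the 4 genes with more flop than flip.

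All 4 genes had the same most abundant transcript in both files, as 76.5% of 12063 genes did. The second file also gave the same side of 50% for every gene and library. It placed Gria1 at 64.2% and 66.5%, Gria2 at 82.0% and 82.8%, Gria3 at 87.8% and 83.5% and Gria4 at 28.3% and 32.4%. From high to low the order was Gria3, Gria2, Gria1 and Gria4 in each library and each file. Counting Gria3-208 as flop, a choice made after the values were seen, lowered Gria3 to 84.5% and 80.3% in the first file and to 77.0% and 73.8% in the second. Under that count Gria3 overlapped Gria2 in the first file and lay below it in both libraries in the second. Over the 4 genes together, flip forms held 77.7% of flip plus flop TPM in both libraries in the first file, and 75.7% and 75.9% in the second. Gria1 and Gria4 lay on opposite sides of 50%. Their compared forms have 3′ untranslated regions of nearly equal length, 2597 and 2598 bases in Gria1 and 2253 and 2256 in Gria4. The annotated starts of these forms differ, and the part of either transcript end in the flip shares was not tested.

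**Figure D4:**
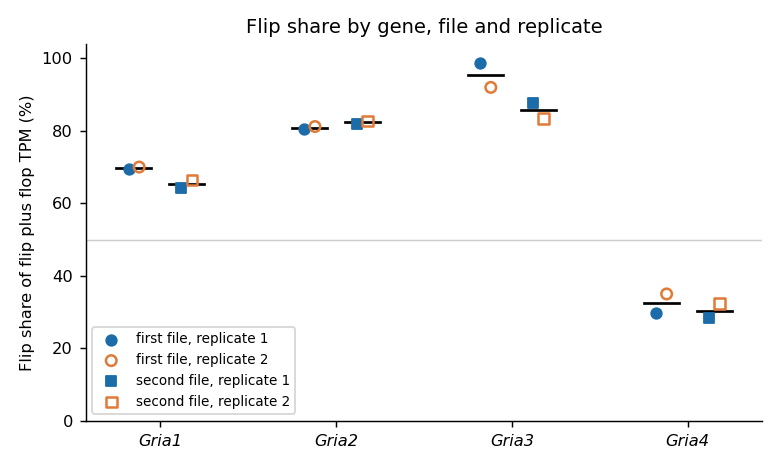
Flip share (%) of flip plus flop TPM for each gene in the first file (circles) and the second file (squares), replicate 1 filled and replicate 2 open, with short lines for means. Gria4 lies below 50% at every point (28.3% to 35.0%), and the other genes lie at 64.2% or above.

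**Figure D5:**
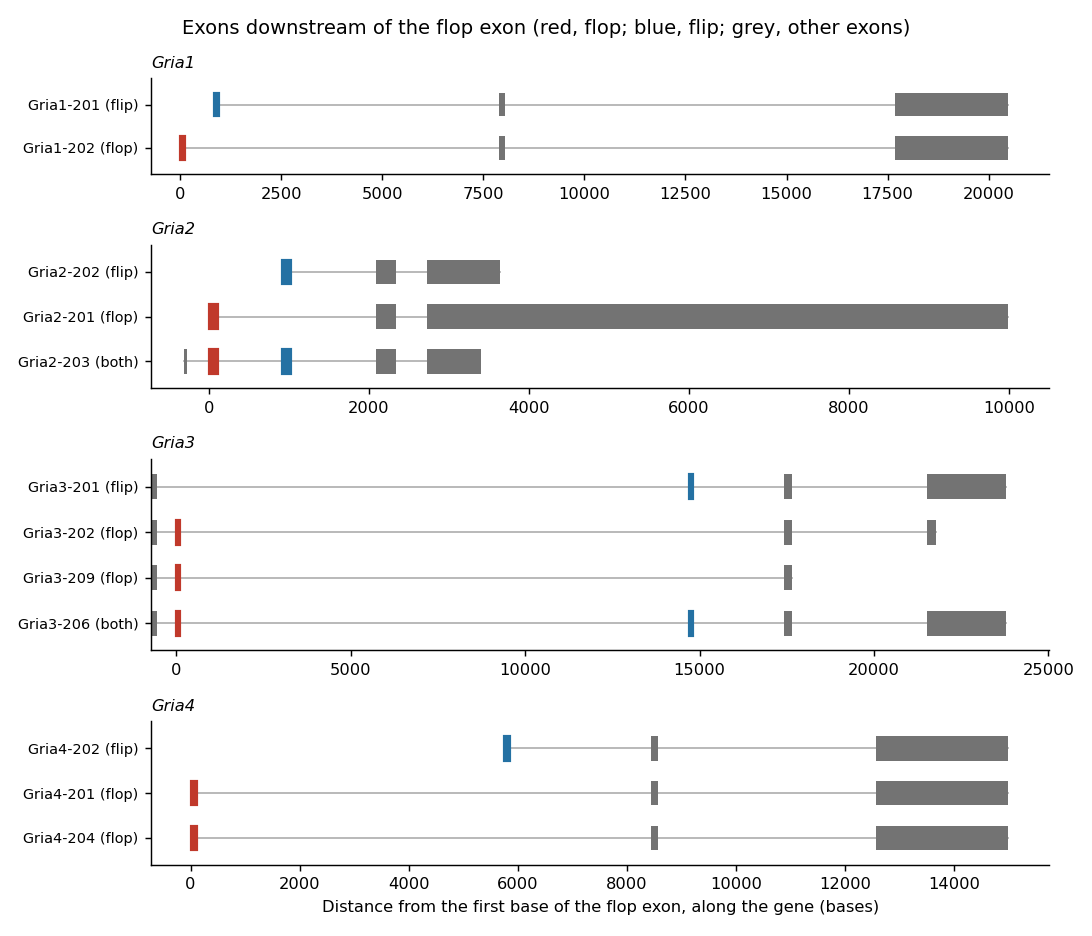
Annotated exons of the full-length and decay-target transcripts from the flop exon onwards, by distance along the gene in bases, with flop in red and flip in blue, leaving out the flip transcript with almost no reads. The last exon of the Gria2 flop form runs far past that of the flip form, and the Gria3 flop forms stop short of the flip form. The 3′ ends of the Gria1 and Gria4 forms nearly coincide, while their starts, which differ, are not shown.

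AMPA receptor subunits also come with long or short cytoplasmic tails, which bind different partner proteins. No gene had more than 1 tail among its full-length transcripts in this annotation. The coding sequence after the flip exon was 336 bases in Gria1 and 297 in Gria4, each over 2 exons, and 243 bases in Gria2 and in Gria3, within 1 exon. The files thus hold no separate value for a long tail of Gria2 or a short tail of Gria4.

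Receptors in neurons carry auxiliary subunits that steer their trafficking and gating, and 13 of 14 such genes were detected. The highest was Cnih2, a cornichon that slows deactivation, at 121.52 and 123.20 TPM, above Gria1 and Gria3 in both libraries. Prrt1 was next by mean in the gene table, at 78.19 and 74.61 TPM, but overlapped Cacng7, at 74.82 and 73.90 TPM, Cacng8, at 72.50 and 75.02 TPM, and Cacng3, at 76.93 and 69.23 TPM. In the second file Cacng7 was above it, at a mean of 140.1 against 116.0 TPM. Shisa8 was lowest at 0.84 and 1.02 TPM. All 14 genes for assembly and trafficking proteins were detected. Nsf, the ATPase that binds GluA2, stood at 412.45 and 418.39 TPM, the neuronal pentraxin receptor gene Nptxr at 420.66 and 402.22 TPM, and the scaffold gene Grip2 was lowest at 6.59 and 6.95 TPM. Summed, the auxiliary genes had 646.76 and 627.64 TPM, beside 464.26 and 458.64 TPM for the subunit genes. In the gene table, no gene of either list was over 1.5-fold apart between the libraries on TPM + 0.5, beside 3.75% of all genes tested. In the second file Shisa8 was, at 1.21 and 2.17 TPM (a log2 difference of 0.64). It had only 42 and 57 expected counts in the gene table. The share of all genes over 1.5-fold apart was not taken in the second file.

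Messengers of Gria2, Gria3 and Gria4 are also known to be edited by adenosine deaminases at an arginine codon at the end of the exon just before flip and flop, in a hairpin that the exon forms with its intron. In the gene table the deaminase genes Adar, at 60.07 and 55.44 TPM, and Adarb1, which edits the Gria2 pore site, at 58.69 and 53.92 TPM, were at like levels. Adarb2, which has no known editing activity, was at 10.86 and 11.14 TPM. In the second file Adar was above Adarb1 in both libraries, at 129.9 and 130.7 TPM against 89.06 and 80.88 TPM. Counts do not show editing. The annotation does list a small RNA gene over each of these exon ends, on the same strand, and none in Gria1. They are Gm25749 in Gria2 at chr3:80692203-80692313, Gm22413 in Gria3 at chrX:41654234-41654318 and Gm23811 in Gria4 at chr9:4455940-4456023 (mm10). They are printed to show the exon end with its intron, with the bases of the subunit gene's exon in capitals and those of the intron in lower case.
Gm25749: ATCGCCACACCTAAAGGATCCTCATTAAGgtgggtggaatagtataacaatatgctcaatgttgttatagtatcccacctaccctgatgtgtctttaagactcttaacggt
Gm22413: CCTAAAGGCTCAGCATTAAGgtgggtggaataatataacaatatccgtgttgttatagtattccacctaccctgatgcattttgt
Gm23811: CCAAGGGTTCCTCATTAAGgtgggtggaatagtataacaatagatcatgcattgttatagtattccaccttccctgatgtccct
The first file listed Gm25749 at 15.02 and 6.59 expected counts, or 62.19 and 24.40 TPM, and the second file listed it at 0. Reads of Gria2 and of this small gene share the same bases, so the division between them is uncertain. Gria2 itself had 21233.98 and 23181.41 expected counts. Gm22413 and Gm23811 were listed at 0 in both files.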

How the data were processed

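Total RNA-seq of left cortex from 2 libraries was analysed from the deposited tables, with mm10 as the build and GENCODE M21 as the annotation, per the file list that came deposited with each library. Per the file headers, the gene table and the first transcript file hold expected counts, TPM, the share of each transcript in percent, and credibility bounds on TPM (a signal with lower and upper limits deposited by the authors). The second transcript file holds estimated counts and TPM, also deposited by the authors. The column names are those that RSEM and kallisto write; the sources used here do not give programs, versions, aligner or the level of the bounds.

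From these, TPM were summed by gene, transcript category and exon, and shares were taken per library. Levels are mean and SD over 2 libraries; detection means 1 TPM or more in each. Library differences were taken as log2 of TPM + 0.5, which understates changes of low genes, and counting intervals are exact binomial (95%). Spike-ins and the 26248 numbered rows that name no gene, with 7 and 10 counts, were left out of library sizes. Rounded counts went into edgeR 4.0.16 (TMM) and DESeq2 1.42.0 (size factors), for scaling alternatives only. Flip and flop exons were found with Biopython 1.88 in the annotation's transcripts. Other software was scipy 1.17.1, pandas 2.3.3, numpy 2.4.6 and matplotlib 3.10.9, under Python 3.11.15 and R 4.3.3. The fold between libraries was tested on simulated counts that held counting error only, and the transcript share on a small made-up example. The other steps were not tested in this way. All 4 genes and their transcripts were followed, transcripts being named from a mean of 5% of their gene; of other lists the 2 highest and the lowest gene were named, and any over 1.5-fold apart. Neighbours in the order of levels, the marker genes Slc17a7 and Gad1 and the deaminase genes were named besides, as were Cacng genes close to Prrt1. The members and lists were chosen with earlier results of these data known. Alternatives were other estimates, transcripts, scalings, pseudocounts, count minimums and single libraries.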

Additional observations from a re-analysis of the deposited data

How the results depend on the processing

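No paired analysis was possible because the labels give 1 group. The order Gria2 first and Gria4 last held in every estimate, while Gria1 and Gria3 changed places. With posterior mean estimates, Gria1 stood at 92.6, Gria2 at 219.1, Gria4 at 43.8 and the sum at 450.0 TPM. In the second transcript file, Gria1 stood at 135.4, Gria2 at 329.5, Gria3 at 145.1, Gria4 at 66.96 and the sum at 677.0 TPM. Rescaled over protein-coding transcripts, they stood at 229.7, 400.8, 166.8 and 109.9 TPM. As shares of the sum, Gria1 was 20.0% in the second file and 23.1% by expected counts, which are not divided by length, where Gria4 was 7.70%. Over protein-coding transcripts, Gria4-203 included, Gria1 was 25.3%, Gria2 44.2%, Gria3 18.4% and Gria4 12.1%. The log2 differences between libraries stayed under 1.5-fold in all 28 values. Scaled to the spike-in total, they were 0.20 for Gria1, 0.15 for Gria2, 0.16 for Gria3 and 0.12 for Gria4. The negative values of Gria2 and Gria4 thus turned positive. Against counts scaled by library size, spike-in scaling moves every gene by the same log2 amount, so this shift is not particular to the subunit genes. The second file gave 0.14 for Gria1, -0.0146 for Gria2 and 0.0048 for Gria3. In that file full-length Gria1 was at 128.6 and 131.7 TPM, and Gria1-205 was at 0 and 10.5 TPM. Counts with TMM gave 0.0534 for Gria1 and 0.0025 for Gria2, and DESeq2 size factors gave 0.0548 and 0.0039. The flip share was 65.4% for Gria1, 82.4% for Gria2 and 85.7% for Gria3 in the second file, and 82.4% for Gria3 with Gria3-208 counted as flop in the first, an alternative chosen after seeing the data. Beyond what a scaling or a definition gives by construction, the cause of these shifts was not tested. Of 26 transcript shares, 21 moved by more than their spread in the second file and 10 with posterior means. Genes over 1.5-fold apart numbered 145 with a mean count of at least 100 and 1761 with any count, against 680. Leaving out a library leaves the value of the other, as given above.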
